A study of Rattus norvegicus with 15 samples.

Results

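Solute carriers are the membrane proteins that move amino acids, peptides, lactate, sugars, metals, ions, vitamins and drugs into and out of cells and between their compartments. Here the 169 solute carrier genes with a mean signal above 500 in rat epididymal fat are described. Left out are the glucose carriers (family Slc2), the mitochondrial carriers (Slc25) and the fatty acid carriers (Slc27). They were chosen by symbol, as Slc with a number and a letter, from probe sets that name 1 gene, and by signal. For each gene the probe set with the highest mean was taken and kept where its mean over 15 arrays exceeded 500. That left 169 of the 241 genes of these families on the array, which named 14217 genes in all; the 3 families left out had 54. The mean signal chose the members and is not a result. The 3 genes just inside the threshold were Slc7a5 at a mean of 500.7, Slc1a4 at 501.7 and Slc22a25 at 505.8, and the 3 just outside were Slc16a13 at 481.6, Slc26a1 at 480.2 and Slc22a13 at 479.7. Of the members, 6 exceeded 500 in 1 group only (Slc13a4, Slc46a3, Slc14a1, Slc22a25, Slc1a4 and Slc7a5), and none of these 6 passed the filter on low values used in the tests. Without the near-identical pair of arrays described below, 7 members exceeded 500 in 1 group only, and 1 of them, Slc22a3, was tested.

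The symbol rule took in 2 genes that are not carriers and only carry a carrier's name. These are Slc7a6os, named for its place opposite Slc7a6, and Slc4a1ap, an adaptor that binds an anion exchanger; they are given apart. The members Slc8b1 and Slc30a9 are known as mitochondrial carriers from outside family Slc25, so the members are not all outside mitochondria. A signal of 500 is also no proof of expression. The array medians ran from 690.8 to 860.4, 63.5% of all probe sets had a mean above 500, and 38 members had a mean below the highest array median.

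The fat was taken from male Long-Evans rats, and by the labels each rat had its own Affymetrix RAE230_2 array. Diet-induced obesity was present in 7 rats that had eaten a high fat, high sucrose diet since weaning; the 8 lean rats had eaten a regular chow. Shipping was at 14 weeks of age and death at 26 weeks, when the rats were fed. Diet and body fat thus differ together between the groups and cannot be told apart. Values are MAS5 signals, the brightness given to each probe set on a linear scale, and fold changes are differences of log2(signal + 79.9), obese minus lean, with their standard errors from limma.

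Obese rat 1 and lean rat 7 had nearly the same array values although their labels differ. Over the 18625 probe sets that passed the filter on low values, the SD of their log2 difference was 0.22. The next closest of the 105 pairs had 0.37. Over the members the median absolute log2 difference of obese rat 1 and lean rat 7 was 0.10. The labels do not say which group fits either, so each result is given with all 15 arrays and without this pair (13 arrays, 6 obese and 7 lean). On all arrays the fat cell markers were bright, with Adipoq from 31853.4 to 74165.4 and Plin1 from 43985.4 to 67018.2. In the 13 arrays, the summed signal of 18 measured macrophage markers ran from 218869 to 430722 in obese and from 138312 to 201415 in lean rats. All 18 had positive log2 fold changes, 6 passed at an adjusted p of 0.05, and the listed marker Msr1 had no probe set of its own. Their mean log2 value was 13.24 ± 0.32 (SD) in the 6 obese and 12.60 ± 0.22 (SD) in the 7 lean rats (by an exact two-sided permutation p = 0.00233, adjusted over 11 array measures 0.0256). Of the mesothelial markers 8 of 9 were negative and 1 passed, with summed signals of 17366.8 to 33014.3 in obese and 15195.0 to 40177.9 in lean rats. The epididymal epithelium markers Defb22, Adam7 and Cst11, of which 1 passed the filter on low values, had mean log2 values of 9.08 ± 0.15 (SD) in obese and 9.39 ± 0.25 (SD) in lean rats, with summed signals of 1366.7 to 2363.8 and 1815.9 to 2646.4 (by an exact two-sided permutation p = 0.0152, adjusted 0.0833). The array medians were 744 ± 52 (SD) in the 6 obese and 813 ± 39 (SD) in the 7 lean rats (by an exact two-sided permutation p = 0.0245, adjusted 0.0897). The log2 ratio of 3 prime to 5 prime Gapdh signal, a sign of RNA quality, was 0.72 ± 0.27 and 1.04 ± 0.28 (SD; by an exact two-sided permutation p = 0.0606, adjusted 0.167). In whole tissue, fewer cells of a type and less RNA per cell cannot be told apart. The part of these measures in the results on carriers was not tested, apart from the Gapdh ratio, which also entered a fit as a covariate.

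Carriers are sorted below by family, under what the family is best known to move. Most that work at the cell surface are secondary active: they use the sodium gradient built by the sodium pump, or a proton gradient, to move a second solute uphill, while exchangers swap one solute for another. In fat cells, amino acid carriers feed protein and lipid synthesis, monocarboxylate carriers release lactate, and organic cation carriers clear catecholamines, the hormones that drive fat breakdown. Others sit in lysosomes, the Golgi apparatus or secretory vesicles, and macrophages are rich in the lysosomal ones.

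Of 159 tested members, 2 passed in the 13 arrays. Slc7a10 (Entrez gene 114518), an exchanger of small neutral amino acids such as serine and glycine at the surface of white fat cells, was higher in obese rats. Slc22a3 (29504), the extraneuronal organic cation transporter that takes up catecholamines, was lower. The remaining 157 did not pass, and 10 of the 169 members were too dim to be tested (Slc13a4, Slc16a12, Slc39a2, Slc37a1, Slc17a7, Slc46a3, Slc14a1, Slc22a25, Slc1a4 and Slc7a5). The 250 bases before the start site of these 2 genes, from RefSeq on build GRCr8, plus strand, are shown because they are the only members that passed.
Slc7a10, chr1:96965872-96966121: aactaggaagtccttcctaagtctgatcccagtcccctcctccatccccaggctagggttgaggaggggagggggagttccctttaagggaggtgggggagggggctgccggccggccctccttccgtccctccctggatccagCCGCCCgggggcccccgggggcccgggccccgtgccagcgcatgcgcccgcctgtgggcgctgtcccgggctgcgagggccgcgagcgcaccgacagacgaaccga
Slc22a3, chr1:50782968-50783217: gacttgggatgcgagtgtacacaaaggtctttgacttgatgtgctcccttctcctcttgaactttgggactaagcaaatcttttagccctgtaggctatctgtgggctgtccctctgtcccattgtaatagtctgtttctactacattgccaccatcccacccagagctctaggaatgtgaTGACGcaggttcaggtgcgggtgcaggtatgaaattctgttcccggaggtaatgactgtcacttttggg
The capitals mark the matches to the 4 motifs searched on both strands: AGGTCA (the nuclear receptor half-site), TGACG (the half-site of CREB and ATF factors), TGATGNAA (the core of the amino acid response element) and GGGCGG (the GC box).

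The window of Slc7a10 held 72.4% G and C, 20 CpG dinucleotides and 1 match, a GC box on the minus strand at -106 to -101 from the start site. The window of Slc22a3 held 48.8% G and C, 4 CpG dinucleotides and 1 match, TGACG at -69 to -65. Over 27457 RefSeq promoters of the same length the medians were 52% and 6. Among the 142 members with a promoter in the table, 76 held GGGCGG (53.5%, against 32.4% of all promoters) and 31 held TGACG (21.8% against 19%). For AGGTCA the shares were 11.3% of members (16) and 13.7% of all, and for TGATGNAA 4.2% (6) and 3.3%. A match describes the letters and is not evidence of a bound factor.

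Slc7a10 had signals of 4094.8, 4318.0, 3952.2, 4651.8, 2940.9 and 2978.6 in obese rats 2, 3, 5, 6, 7 and 8, and 1777.6 in obese rat 1. In lean rats 1 to 8 its signals were 1880.2, 2736.1, 2115.1, 2080.3, 2177.0, 2120.4, 1796.8 and 1886.5. Without the near-identical pair every obese rat lay above every lean rat; with it, obese rat 1 was the lowest of all 15. In the 13 arrays the means were 3823 ± 709 (SD) in the 6 obese and 2142 ± 287 (SD) in the 7 lean rats. On the log2 scale the difference was 0.80 ± 0.13 (SE; limma adjusted p = 0.0138). With all 15 arrays it was 0.68 ± 0.17 (SE; limma adjusted p = 0.105), which did not pass.

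Slc22a3 had signals of 412.5, 296.1, 788.3, 208.0, 474.1 and 639.0 in obese rats 2, 3, 5, 6, 7 and 8, and 1721.8 in obese rat 1. In lean rats 1 to 8 they were 1048.3, 1397.4, 1104.9, 2476.7, 1745.3, 1223.3, 1674.9 and 1066.8. Again the groups were apart without the pair, and obese rat 1 lay within the lean range. The 13-array means were 470 ± 215 (SD, n = 6) and 1438 ± 520 (SD, n = 7), a log2 difference of -1.50 ± 0.25 (SE; limma adjusted p = 0.0157). It was -1.28 ± 0.30 (SE; limma adjusted p = 0.103) with all 15 arrays. The 13-array adjusted p of Slc22a3 rose to 0.0972 when the Gapdh ratio was added as a covariate, with a log2 difference of -1.36. In the 13 arrays Slc22a3 exceeded the mean of 500 that chose the members only in lean rats, and obese rat 1 brought the obese mean over all 7 rats to 649.

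**Figure D1:**
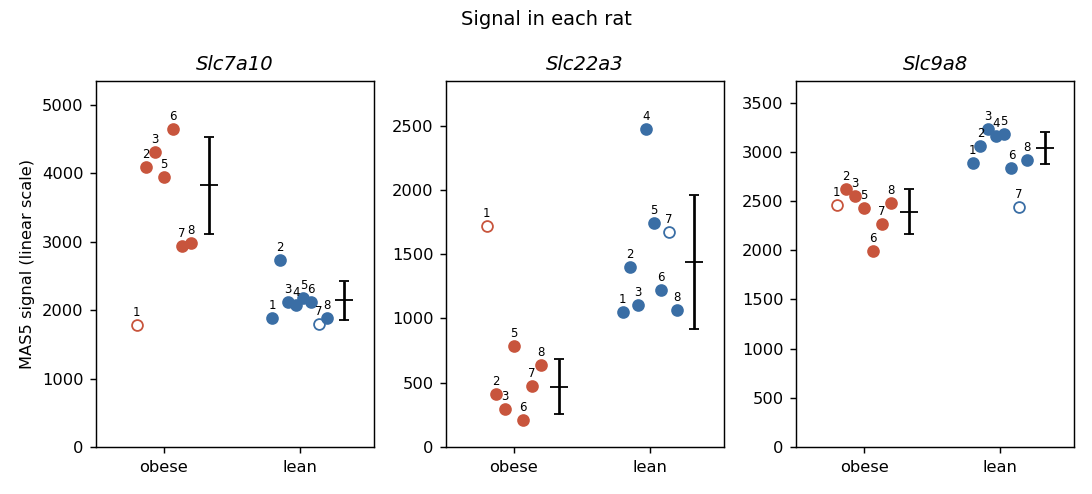
MAS5 signal (linear scale, from 0) of Slc7a10, Slc22a3 and Slc9a8 in each rat, labelled by its number. Open circles are obese rat 1 and lean rat 7, and the bars give the mean ± SD of the 6 obese and 7 lean rats without them. The filled circles of the groups do not overlap for any of the 3 genes, while the open circle of obese rat 1 lies in or below the lean range for Slc7a10 and Slc22a3.

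Against the background of all 18625 probe sets, the members showed few calls. With all 15 arrays, 0 of 159 passed an adjusted p of 0.05, and the share over all probe sets was 0%; 31 had an unadjusted p under 0.05 (19.5%, against 15.6% of all). In the 13 arrays, 2 of 159 passed (1.26%, against 1.01% of all). By direction, 1 was higher (0.629%, against 0.725%) and 1 lower (0.629%, against 0.29%). At an unadjusted p under 0.05 there were 41 members, or 25.8% against 17.8% of all probe sets. Of these, 16 were higher (10.1%, against 7.59% of all) and 25 lower (15.7%, against 10.2%). The groups did not overlap for 3 members in the 13 arrays (1.89%, against 1.45%) and for 0 members in the 15 arrays (0%, against 0.193%). Besides both called members, this was Slc9a8. The counts of calls thus lay near the background, and the unadjusted count lay above it.

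As deposited, 65 members had positive and 94 negative log2 fold changes in the 13 arrays, with a median of -0.05 against -0.04 over all probe sets, and 68 and 91 with a median of -0.04 in the 15 arrays. Signs of small differences depended on the scaling. After median centring of the arrays, the median over all probe sets went from -0.04 to 0.07, and 100 members were then positive and 59 negative; quantile normalization gave 71 and 88. Relative to the median over all probe sets, the members divided nearly evenly under each of these scalings, 82 below and 77 above as deposited and after centring and 84 and 75 after quantile normalization. Between the fits, 152 of 159 members kept their sign, which was largely set in advance because the pair adds nearly the same values to both groups.

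The sign also went with signal. Of 37 tested members with a mean signal of 500 to 1000, 11 were positive and 26 negative, with a median of -0.16. Of 66 members at 1000 to 2000, 25 were positive (median -0.08), of 35 at 2000 to 4000, 18 were positive (median 0.03), and of 21 above 4000, 11 were positive (median 0.05). Over all probe sets in the same ranges the share of positive fold changes climbed from 30.5% to 38.2%, 49.3% and 61.2%, with medians of -0.13, -0.07, -0.0024 and 0.05. The members' medians in the 4 ranges thus followed those of all probe sets. The lower array medians of the obese rats, given above, move with this; their part was not tested.

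**Figure D2:**
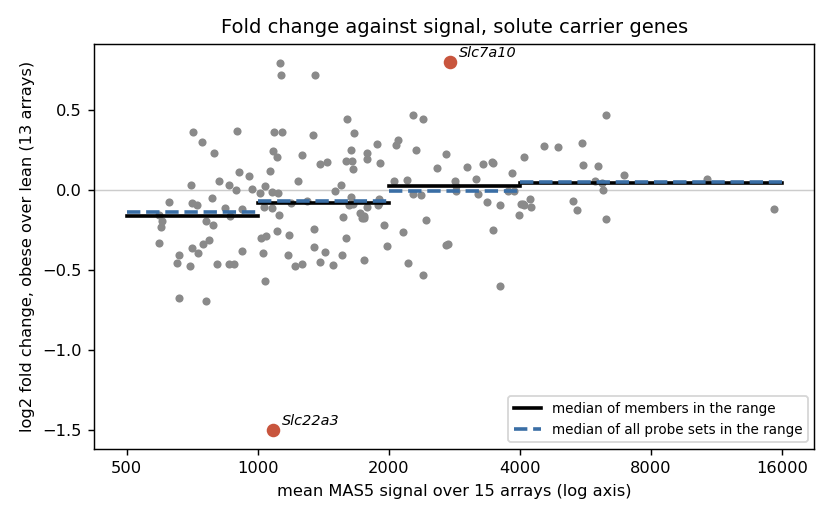
Log2 fold change, obese over lean in 13 arrays, of each tested member (points) against its mean MAS5 signal over 15 arrays (log axis). Black bars are the members' medians and dashed bars those of all probe sets in the same signal range; both climb from the dimmest range (-0.16 and -0.13) to the brightest (0.05 and 0.05), and the 2 members that passed, Slc7a10 and Slc22a3, are marked.

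Amino acid carriers, with those of neurotransmitters, taurine and creatine, were the most numerous class, with 36 members of 53 genes on the array. Of 34 tested in the 13 arrays, 1 passed (Slc7a10); 16 were positive and 18 negative, with a median of -0.05. At an unadjusted p under 0.05, 5 were higher (14.7%, against 7.59% of all probe sets) and 8 lower (23.5%, against 10.2%). Relative to the median over all probe sets, 17 lay on either side as deposited and after centring. Slc7a10 thus differed by more than its replicate spread while the class was divided.

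The class held partners that work as pairs. Slc3a2, the heavy chain that brings the light chains of family Slc7 to the cell surface, had 6555 ± 1049 (SD) in the 6 obese and 5845 ± 622 (SD) in the 7 lean rats, a log2 difference of 0.15 ± 0.12 (SE; limma adjusted p = 0.516). Its light chain Slc7a6, which exchanges cationic for neutral amino acids, had a lowest, median and highest signal of 2040.8, 2676.5 and 3238.5 in the 6 obese rats and of 1484.9, 1883.4 and 2368.6 in the 7 lean rats. Of the 6 obese rats, 5 lay above every lean rat, and the fold change of 0.47 ± 0.13 (SE) did not pass (limma adjusted p = 0.0933). It passed after median centring, which raised the median over all probe sets from -0.04 to 0.07, at 0.59 (limma adjusted p = 0.0420). Slc7a7, a related exchanger found in macrophages, was at 0.36 ± 0.16 (SE; limma adjusted p = 0.245), with obese rats from 1540.3 to 2412.9 and lean rats from 976.1 to 1950.1. Slc7a11, which takes up cystine for glutamate, was at -0.46 ± 0.15 (SE; limma adjusted p = 0.130), with obese signals of 380.5 to 718.5 and lean ones of 608.8 to 957.6. Slc7a5, the light chain for large neutral amino acids, lay below the filter, with 424.8 ± 75.8 (SD, n = 6) and 558.9 ± 215.1 (SD, n = 7), and was not tested. Of these tested light chains, Slc7a6 and Slc7a7 were positive and Slc7a11 negative, and none passed as deposited. Slc7a10, also of family Slc7, was higher as given above. Slc7a8, another of the family, was at 0.45 (limma adjusted p = 0.672). Over the 10 tested members of family Slc7, 5 were positive and 5 negative.

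Slc43a2, a carrier of large neutral amino acids, had a fold change about as large as that of Slc7a10, 0.80 ± 0.27 (SE), with an adjusted p of 0.143 by limma. Its lean rats spread from 382.9 to 1775.9 and enclosed all 6 obese rats, at 1214.9 to 1661.9. Its second probe set gave 0.25. The pair of proline carriers Slc6a20a and Slc6a20b went apart, at 0.72 ± 0.30 and -0.46 ± 0.21 (SE; limma adjusted p = 0.222 and 0.262). The second probe set of Slc6a20a gave -0.57, against the 0.72 of its brightest, so the sign for this gene rests on the probe set chosen; binding of either probe set to the related transcript was not tested. Family Slc6 as a whole had 3 positive and 7 negative of 10, with a median of -0.32. At an unadjusted p under 0.05, 2 of them were lower (20%, against 10.2% of all probe sets) and 1 higher (10%, against 7.59%).

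The amino acid carriers best known in fat besides Slc7a10 showed smaller differences. Slc36a2, a proton-coupled carrier of glycine and proline used as a marker of brown fat cells, had a median of 1427.2 in obese (1220.8 to 1879.0) and 2207.8 in lean rats (1145.7 to 3147.8). Its fold change was -0.43 ± 0.18 (SE; limma adjusted p = 0.222). Slc1a5, which imports glutamine, had 14569 ± 1421 (SD, n = 6) and 15850 ± 1723 (SD, n = 7), a difference of -0.12 ± 0.10 (SE; limma adjusted p = 0.580) with a 95% interval of -0.34 to 0.10. Slc38a2, an amino acid carrier induced on starvation, was at 0.06 ± 0.14 with an interval of -0.23 to 0.35 (limma adjusted p = 0.861; below 0 after quantile normalization). The taurine carrier Slc6a6 was at 0.29 ± 0.20 (SE; limma adjusted p = 0.456) and the creatine carrier Slc6a8 at -0.18 ± 0.14 (SE; limma adjusted p = 0.544). Slc1a4, another carrier of small neutral amino acids, was below the filter, at 461.8 ± 173.6 (SD, n = 6) and 527.3 ± 228.2 (SD, n = 7).

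Slc1a3, a glutamate carrier, shows how far a gene's value can rest on its probe set. Its brightest probe set differed by -0.000245 ± 0.12 (SE), with obese rats from 5055.4 to 7116.0 and lean rats from 5051.0 to 6956.6. A second probe set with nearly the same mean signal over 15 arrays (6207 against 6224) gave -0.76 (limma adjusted p = 0.0269), and the last of its probe sets gave -0.13. The 13-array fit tested 39 dimmer probe sets of the members, and this was the 1 that passed. Of 32 members with several tested probe sets, 17 had probe sets of both signs. Among the named ones these were Slc6a20a, Slc35b1, Slc39a14 (second probe set -0.05), Slc6a8 (0.12) and Slc66a1 (0.64 and -0.24).

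The 3 peptide carriers were positive in both fits and under each scaling, and none passed. Slc15a2, which imports dipeptides and tripeptides with protons, was at 0.32 ± 0.17 (SE; limma adjusted p = 0.348); its obese rats reached from 1560.2 to 3303.8, with 4 of 6 above every lean rat and 2 below every one, and lean rats from 1625.0 to 2227.6. The lysosomal histidine and peptide carriers Slc15a4 and Slc15a3 were at 0.23 ± 0.12 and 0.03 ± 0.14 (SE; limma adjusted p = 0.343 and 0.920). Both are known from immune cells, and the macrophage markers differed as given above. The part of immune cells in these fold changes was not tested.

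Of the carriers of lactate, ketone bodies and other carboxylates, 7 of 9 were tested, 3 positive and 4 negative, with a median of -0.02 that lay above 0 after centring and quantile normalization. Slc16a1, which moves lactate and ketone bodies with protons, had a lowest, median and highest signal of 4498.5, 5818.1 and 7016.8 in obese and of 3836.1, 5710.0 and 6198.9 in lean rats. Its fold change was 0.16 ± 0.14 (SE; limma adjusted p = 0.605). Slc16a3, the lactate exporter of glycolytic cells, was at -0.11 ± 0.23 and Slc16a7, a carrier with high affinity for pyruvate, at -0.11 ± 0.17 (SE; limma adjusted p = 0.836 and 0.776). The 95% intervals ran from -0.60 to 0.39 for Slc16a3 and from -0.47 to 0.25 for Slc16a7.

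The sugar families Slc5, Slc37, Slc45 and Slc50 gave 8 tested members, 3 positive and 5 negative, and none passed. At an unadjusted p under 0.05, 2 were lower (25%, against 10.2% of all probe sets) and 0 higher (against 7.59%). The class was sorted by family and also takes in carriers of inositol and vitamins. Slc5a5, which belongs to a sugar carrier family but is known as the sodium iodide symporter of the thyroid, was at -0.46 ± 0.18 (SE; limma adjusted p = 0.193), with obese rats from 914.8 to 1356.4 and lean rats from 986.4 to 2331.5. Slc37a4, which brings glucose 6-phosphate into the endoplasmic reticulum, was at -0.0010 ± 0.11 with an interval of -0.23 to 0.22 (limma adjusted p = 0.998; 0.12 after centring). Slc45a4 was at 0.21 ± 0.18 (SE; limma adjusted p = 0.581).

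The class for nucleotide sugars and related molecules of the endoplasmic reticulum and Golgi apparatus was sorted by family. It also takes in carriers of unknown substrate, such as Slc35f1. All 19 of its members were tested, 9 positive and 10 negative. None passed. At an unadjusted p under 0.05, 4 were higher (21.1%, against 7.59% of all probe sets) and 1 lower (5.26%, against 10.2%). Slc35b1, which exchanges ATP for ADP across the membrane of the endoplasmic reticulum, had a lowest, median and highest signal of 4543.2, 4860.1 and 5560.5 in obese and of 3687.5, 4264.6 and 4713.0 in lean rats. Of its 6 obese rats, 4 lay above every lean rat, and the fold change was 0.28 ± 0.10 (SE; limma adjusted p = 0.155). Its second probe set went the other way, at -0.16, and the mean over both gave 0.06. Slc35b4, a carrier of UDP-sugars, was at 0.05 ± 0.09 (SE; limma adjusted p = 0.832; below 0 after quantile normalization), and Slc35f1, of unknown substrate, at -0.30 ± 0.14 (SE; limma adjusted p = 0.277).

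Among carriers of organic cations and anions, 16 of 18 members were tested, 4 positive and 12 negative, with a median of -0.20. Slc22a3 was the 1 that passed. Relative to the median over all probe sets, 11 of 16 lay below as deposited and after centring and 10 of 16 after quantile normalization. The class held many dim genes, with a median of the members' mean signals of 1097, a range in which all probe sets also leaned below 0. At an unadjusted p under 0.05, 3 were lower (18.8%, against 10.2% of all probe sets) and 0 higher (against 7.59%). Slc18b1, a vesicular polyamine carrier, was at -0.25 ± 0.12 (SE; limma adjusted p = 0.281), with obese rats from 2415.8 to 3677.5 and lean rats from 2976.9 to 4046.4. Slc22a18, an imprinted member of the family of Slc22a3, was at 0.17 ± 0.09 (SE; limma adjusted p = 0.338), with 4 of 6 obese rats above every lean rat. Slc22a25 was below the filter, at 513.1 ± 178.5 (SD, n = 6) and 568.6 ± 160.5 (SD, n = 7).

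**Figure D3:**
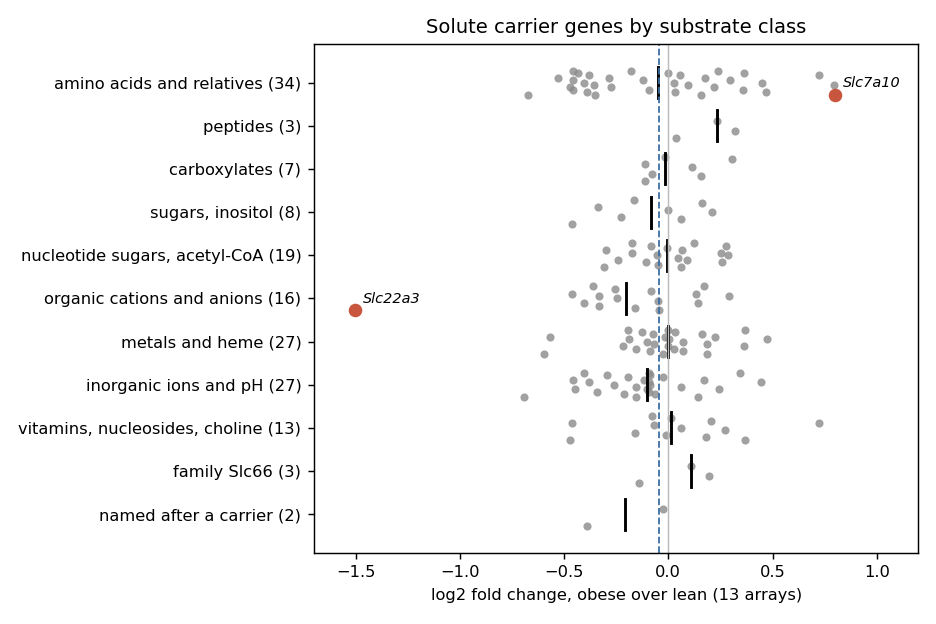
Log2 fold change, obese over lean in 13 arrays, of each tested member by substrate class, with the number tested in brackets. Points are genes, black bars class medians, and the dashed line the median over all probe sets (-0.04); Slc7a10 (0.80) and Slc22a3 (-1.50) passed. Inorganic ion carriers lie mostly left of the dashed line (20 of 27), and their median changes sign when each array is centred on its median. The median of their mean signals, 1787, lies in a range where all probe sets also leaned below 0.

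Metal and heme carriers gave 27 tested members of 28, 12 positive and 15 negative, with a median of -0.0023 that became 0.11 after centring. None passed as deposited. Slc48a1, which moves heme out of lysosomes and endosomes, had a lowest, median and highest signal of 5851.7, 7133.7 and 10962.8 in obese and of 4506.4, 5077.6 and 6489.3 in lean rats. Of the 6 obese rats, 4 lay above every lean rat. Its fold change of 0.47 ± 0.14 (SE) did not pass (limma adjusted p = 0.112) and passed after median centring, at 0.59 (limma adjusted p = 0.0341). That centring also raised the median over all probe sets, from -0.04 to 0.07. Slc48a1 is known for heme recycling in macrophages, whose markers differed as given above. The part of macrophages in its fold change was not tested.

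Zinc carriers went both ways. Slc30a3, known for loading zinc into synaptic vesicles, had obese signals of 2168.6, 3215.4, 4311.2, 1976.0, 2624.3 and 2449.7 and lean signals of 4034.0, 3863.7, 4702.1, 3588.4, 4465.9, 5224.5 and 3274.6 in the 13 arrays. Of 6 obese rats, 5 lay below every lean rat, and obese rat 5 lay among them; the fold change was -0.60 ± 0.17 (SE; limma adjusted p = 0.0937). Without obese rat 5 it was -0.73 and passed (limma adjusted p = 0.0388). The zinc importer Slc39a4 was at -0.57 ± 0.19 (SE; limma adjusted p = 0.139), with obese rats from 487.0 to 1339.6 and lean rats from 963.9 to 1615.5. It passed without obese rat 3, at -0.71 (limma adjusted p = 0.0423). Slc39a14, which imports zinc, iron and manganese and is known to be induced in inflammation, was at 0.23 ± 0.12 (SE; limma adjusted p = 0.348), and Slc39a1, a zinc importer of most tissues, at 0.07 ± 0.11 (SE; limma adjusted p = 0.788; below 0 after quantile normalization). Over family Slc39, 6 of 10 were positive, and over family Slc30, 3 of 8. The iron exporter Slc40a1 was at -0.02 ± 0.16 with an interval of -0.35 to 0.31 (limma adjusted p = 0.954; above 0 after centring).

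**Figure D4:**
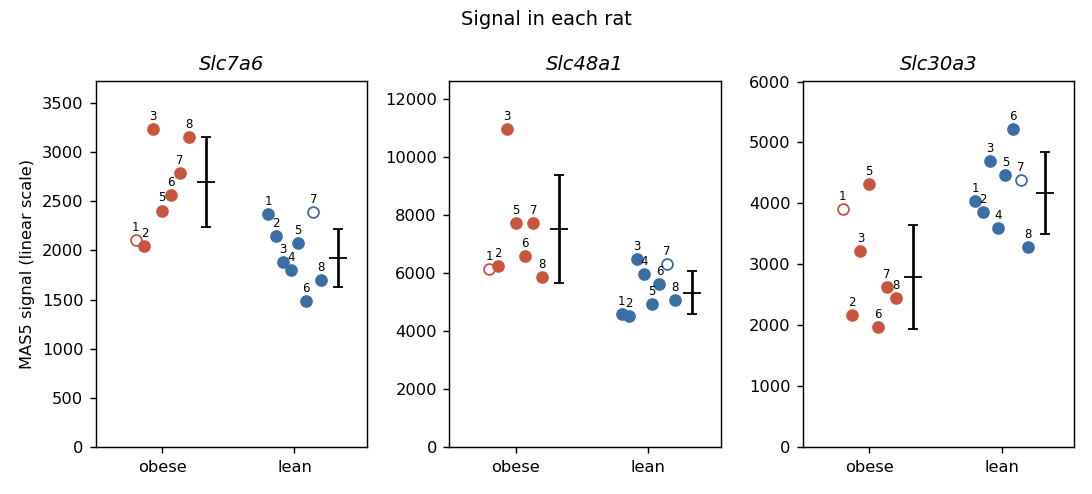
MAS5 signal (linear scale, from 0) of Slc7a6, Slc48a1 and Slc30a3 in each rat, labelled by its number; open circles are obese rat 1 and lean rat 7, and bars give the mean ± SD of the 6 obese and 7 lean rats without them. None of the 3 passed in the fit of 13 arrays, and in each the groups overlap: obese rat 2 for Slc7a6, obese rats 2 and 8 for Slc48a1 and obese rat 5 for Slc30a3 lie among the lean rats.

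Carriers of inorganic ions and pH leaned below the median of all probe sets. All 27 were tested, 6 positive and 21 negative as deposited, with a median of -0.10 that became 0.01 after centring. Relative to the median over all probe sets, 20 of 27 lay below it as deposited, after centring and after quantile normalization. The median of the members' mean signals was 1787. In the range of 1000 to 2000, 38.2% of all probe sets were positive, with a median of -0.07. The part of signal in this lean was not tested. None passed. At an unadjusted p under 0.05, 2 were higher (7.41%, against 7.59% of all probe sets) and 7 lower (25.9%, against 10.2%). Slc9a8, a sodium-proton exchanger of the Golgi apparatus and cell surface, had signals of 2627.6, 2552.1, 2432.0, 1995.1, 2268.0 and 2478.6 in the 6 obese rats and 2461.1 in obese rat 1. In lean rats 1 to 8 they were 2889.0, 3055.6, 3236.0, 3162.5, 3181.8, 2837.3, 2436.7 and 2918.9. Without the pair the groups did not overlap, and lean rat 7 alone made them overlap. The 13-array means of 2392 ± 229 (SD, n = 6) and 3040 ± 159 (SD, n = 7) gave a fold change of -0.34 ± 0.09 (SE; limma adjusted p = 0.0808), which passed when the filter was raised to the 60th percentile (limma adjusted p = 0.0485). With 15 arrays it was -0.29 ± 0.09 (SE; limma adjusted p = 0.141).

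Slc9a5, a relative of Slc9a8 known from brain, was at -0.69 ± 0.27 (SE; limma adjusted p = 0.198), with a wide obese range of 178.1 to 880.9 against 567.7 to 1141.5. Slc8a1, the sodium-calcium exchanger, went the other way, at 0.45 ± 0.15 (SE; limma adjusted p = 0.137), with 4 of 6 obese rats, which ran from 2257.0 to 4227.4, above every lean rat (1696.5 to 2406.3). The phosphate importer Slc20a1 and the sodium, potassium and chloride importer Slc12a2 were at -0.06 ± 0.10 and -0.09 ± 0.18 (SE; limma adjusted p = 0.765 and 0.839), both above 0 after centring. The mitochondrial exchanger Slc8b1 was at -0.09 and the mitochondrial carrier Slc30a9, of the zinc family, at -0.19 (limma adjusted p = 0.706 and 0.310).

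Carriers of vitamins, nucleosides, choline and urea gave 13 tested members of 15, 7 positive and 6 negative, and none passed. Slc52a2, a riboflavin importer, had a lowest, median and highest signal of 929.5, 1324.4 and 1487.5 in obese and of 1351.6, 1766.0 and 2222.8 in lean rats, with 4 of 6 obese rats below every lean rat. Its fold change was -0.46 ± 0.13 (SE; limma adjusted p = 0.0897). Slc29a3, which lets nucleosides out of lysosomes and is known from macrophages, was at 0.72 ± 0.27 (SE; limma adjusted p = 0.191), with 4 of 6 obese rats (942.9 to 1917.8) above every lean rat (252.7 to 1294.5) and a second probe set at 0.45. Slc29a1, the nucleoside carrier of the cell surface, was at 0.01 ± 0.15 with an interval of -0.32 to 0.34 (limma adjusted p = 0.981). The choline carrier family gave Slc44a2 at 0.27 ± 0.12 (SE; limma adjusted p = 0.248).

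The 3 members of family Slc66, lysosomal and related proteins sorted apart, were at 0.20 ± 0.16 (Slc66a2), 0.11 ± 0.10 (Slc66a3) and -0.14 ± 0.26 (Slc66a1, which exports cationic amino acids from lysosomes), with an adjusted p by limma of 0.558, 0.610 and 0.816. Slc66a1 had 1 obese rat at 482.3 and the others up to 2206.5. The genes that only carry a carrier's name, Slc7a6os and Slc4a1ap, were at -0.03 and -0.39 (limma adjusted p = 0.926 and 0.554).

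The genes that carriers depend on were read from a list of 30 pumps, chaperones, scaffolds, kinases and metal and bicarbonate proteins. Of 25 tested in the 13 arrays, 17 were positive and 8 negative, with a median of 0.12 against -0.04 over all probe sets; 0 passed by limma in either fit, while 5 were higher (20%, against 7.59% of all probe sets) and 1 lower (4%, against 10.2%) at an unadjusted p under 0.05 in the 13 arrays. Mt2A, a metallothionein that binds zinc, was at 0.84 ± 0.19 (SE; limma adjusted p = 0.0545). The sodium pump subunits Atp1b1, Atp1b3 and Atp1b2 were at 0.78, 0.29 and -0.28 (limma adjusted p = 0.114, 0.188 and 0.220). The kinase Sgk1, which keeps several carriers at the cell surface, was at 0.46 ± 0.14 (SE; limma adjusted p = 0.117). Bsg, the chaperone of Slc16a1 and Slc16a3, was at -0.26 ± 0.15 (SE; limma adjusted p = 0.371), and Atf4, which induces amino acid carriers, at 0.14 ± 0.10 (SE; limma adjusted p = 0.50).

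With the near-identical pair put back, the differences of the named members were mostly smaller. Nearly the same values added to both groups draw the group means together. Smaller differences of the same sign were thus largely set in advance and are not a separate result. All 47 tested named members kept their sign with 15 arrays, 38 were smaller in size, and the largest move, 0.22, was that of Slc22a3. The lowest adjusted p among them was then 0.103.

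**Figure D5:**
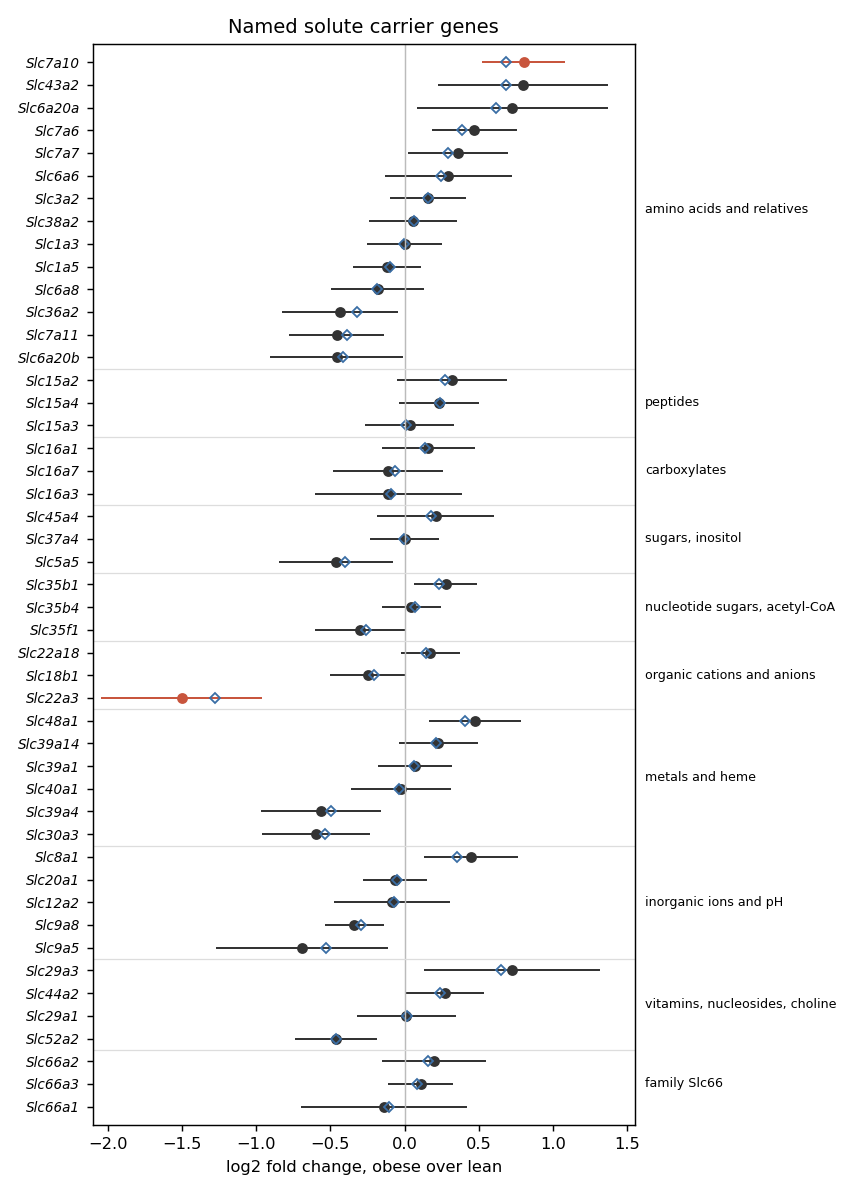
Log2 fold change, obese over lean, of the 47 tested named members by substrate class. Filled circles with 95% intervals are the fit of 13 arrays and open diamonds the fit of 15 arrays. The 2 members in red, Slc7a10 and Slc22a3, passed an adjusted p of 0.05 in the former. For 38 of 47 the diamond lies nearer to 0, which adding nearly the same values to both groups largely fixes in advance.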

How the data were processed

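Total RNA of epididymal fat was hybridised to 15 arrays, 1 per rat. The labels and the design text name 6 and 5 micrograms of RNA and different extraction reagents. Nothing in the labels says whether littermates were used, so p-values measure the spread between these rats. Each deposited value is an intensity, linear and not logged; the submitters' processing notes name MAS5, and its version is not given in the sources used here. The authors had scaled them: the 2% trimmed mean was 1500.34 to 1500.42 on every array. The number of arrays limits the precision.

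Of 31099 probe sets, 57 were controls; by the platform annotation 20826 named 1 gene, 436 several and 9780 none. The members' 248 probe sets all had 1 gene, 57 members had over 1 probe set, and all 169 symbols matched a current Entrez ID. Signals were taken as log2(signal + 79.9), the 10th percentile of all signals, which understates changes of dim genes. The 18625 probe sets whose mean log2 value exceeded the 40th percentile were fitted with limma 3.58.1 (lmFit, eBayes) in R 4.3.3, with Benjamini-Hochberg adjustment over all of them and a threshold of 0.05. The filter, pseudocount and members were those of 15 arrays in both fits. The fits were checked on simulated data. Array measures were compared by exact two-sided permutation tests over rats. Motifs were searched in RefSeq promoters of build GRCr8. The plots were made in Python 3.11.15 and matplotlib 3.10.9.

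The members, classes and lists were chosen with earlier results of these data known. Named were members with an adjusted p under 0.05 in either fit; in each class the member with the highest mean signal and the one with the smallest p in each direction in the fit of 13 arrays; a list of carriers known in fat, macrophages or metal handling; and the 3 members nearest to a mean of 500 on either side. Slc7a6, Slc43a2, Slc6a20a, Slc6a20b, Slc1a3, Slc9a5 and Slc39a4 were named after their values were seen. The mitochondrial carriers and the genes that are not carriers are given as checks of the label, and Slc7a8 beside its family. None of these are counted among the 50 named members. Marker lists were written for fat cells, macrophages, mast cells, mesothelium, endothelium, fibroblasts and progenitors, lymphocytes, epididymal epithelium and red blood cells. In the 13 arrays their tested markers, positive and negative, numbered 5 and 5 for fat cells, 0 and 6 for mast cells, 5 and 4 for endothelium and for fibroblasts and progenitors, 2 and 2 for lymphocytes, 0 and 1 for epididymal epithelium and 2 and 0 for red blood cells. One of the fibroblast markers, Col1a1, passed (limma adjusted p = 0.0305). Alternatives were pseudocounts of 1 and 291.2, no filter or the 60th percentile, centring on array medians, quantiles, array weights, a block for rat numbers, trended robust eBayes, a Gapdh ratio covariate, averaging a gene's probe sets, a mean signal above 1000 and leaving out each rat.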

Additional observations from a re-analysis of the deposited data

Results flagged for a closer look

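Of 100 groups looked at (the 50 named members in 7 obese and 8 lean rats, as labelled), 10 held a rat whose gap to its nearest neighbour, as a share of the group's range, exceeded Dixon's 95% critical value; chance flags about 1 in 20. Values are log2(signal + 79.9) with the signal in brackets. In obese rats, the highest was apart for Slc35b4, with obese rat 6 at 12.92 (7668.6), and for Slc39a14, with obese rat 2 at 12.04 (4132.0). The lowest was apart for Slc44a2, with obese rat 1 at 12.09 (4265.3), for Slc66a1, with obese rat 3 at 9.13 (482.3), for Slc1a4, with obese rat 6 at 7.82 (146.7), and for Slc7a5, with obese rat 5 at 8.56 (296.9). In lean rats, lean rat 2 was the lowest for the polyamine carrier Slc18b1 at 11.58 (2976.9) and the highest for Slc7a10 at 11.46 (2736.1). Lean rat 7, of the near-identical pair, was the lowest for Slc9a8 at 11.30 (2436.7), and lean rat 6 for Slc29a3 at 8.38 (252.7). Both flags on rats of the pair, in Slc44a2 and Slc9a8, lay on the side of the other group.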

How the results depend on the processing

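With 15 arrays, 0 members passed under each alternative, except that 2 (Slc7a10 and Slc22a3) passed without obese rat 1; leaving out 1 rat gave 0 to 2. In the 13 arrays, 4 passed after median centring, 3 higher and 1 lower, with Slc7a6 and Slc48a1 added. Centring also moved the median over all probe sets from -0.04 to 0.07. Counts over all probe sets under the alternatives are not given here, so these calls were not set against them. With the Gapdh ratio as a covariate 1 passed (Slc7a10, with Slc22a3 at -1.36, limma adjusted p = 0.0972), and with the rat number as a block 0 passed. Whether the numbers pair the rats is not known. Same-numbered rats of the 2 groups correlated from -0.11 to 0.24 in their deviations, and 1 of 7 correlated best with its own number. So few correlations cannot settle whether same-numbered rats shared a batch, and the block also costs degrees of freedom. With this replicate block Slc22a3 was at -1.43 and Slc7a10 at 0.83 (limma adjusted p = 0.131 and 0.137), and with 15 arrays and the block 0 passed. Leaving out 1 of the 13 rats gave 2 to 3 members, adding Slc39a4 without obese rat 3 or Slc30a3 without obese rat 5; Slc7a10 and Slc22a3 passed in all 13 of these fits (limma adjusted p of 0.0142 to 0.0344 and 0.0142 to 0.0423). Slc22a3 was not in the test with the 60th percentile filter, where Slc9a8 passed. Over all alternatives the log2 fold changes of Slc7a10 and Slc22a3 in the 13 arrays ran from 0.74 to 0.94 and from -1.68 to -1.19.

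Of 49 results on named members, 35 kept their sign under every alternative tried and 14 with small differences did not; the cause was not tested. After median centring the sign turned for Slc12a2 (0.0303), Slc16a3 (0.0043), Slc16a7 (0.0063), Slc1a3 (0.116), Slc20a1 (0.0514), Slc37a4 (0.115) and Slc40a1 (0.0921). It turned after quantile normalization for Slc16a3 (0.0016), Slc35b4 (-0.0232), Slc38a2 (-0.0056) and Slc39a1 (-0.0187). With array weights it turned for Slc12a2 (0.0117), Slc1a3 (0.0142), Slc40a1 (0.0506) and Slc66a1 (0.0266), and with the mean over probe sets for Slc66a1 (0.0883). With the Gapdh ratio it turned for Slc1a5 (0.0066), Slc20a1 (0.0447), Slc29a1 (-0.0491) and Slc37a4 (0.123), and with the block for Slc20a1 (0.0101), Slc29a1 (-0.205) and Slc38a2 (-0.0373). Leaving out 1 rat turned the sign for Slc12a2 (-0.217 to 0.0252), Slc15a3 (-0.0547 to 0.0865), Slc16a3 (-0.257 to 0.0749), Slc16a7 (-0.201 to 0.0189), Slc1a3 (-0.0478 to 0.0566), Slc29a1 (-0.0565 to 0.103), Slc35b4 (-0.0102 to 0.0798), Slc37a4 (-0.0436 to 0.0516), Slc38a2 (-0.0019 to 0.139), Slc40a1 (-0.0905 to 0.0821) and Slc66a1 (-0.241 to 0.164).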
